A study of Homo sapiens with 21 samples.

Results

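The nuclear factor I (NFI) genes NFIA, NFIB, NFIC and NFIX encode the 4 members of a family of DNA-binding transcription factors, and the accessibility of the chromatin sites assigned to these genes was measured by ATAC-seq in neuroblastoma cells after silencing of ARID1A, ARID1B or both. In ATAC-seq the Tn5 transposase inserts adapters into open DNA, so that more reads over a site mean a more accessible site. A site was taken as a member when the deposited annotation, which assigns each site to the gene with the nearest transcription start site (TSS), gave it the name of 1 of the 4 genes. This held for 79 of 367900 consensus sites: 5 for NFIA, 43 for NFIB, 18 for NFIC and 13 for NFIX. The genes were chosen by the share of distal sites with the NFI sequence pattern. This pattern had been the most enriched among sites that lost accessibility after combined silencing. Values of combined silencing against Control or single silencing, and of each combination against Control, are therefore a description without a test. Single silencing against Control reuses the Control libraries of that choice, and the test between the combinations reuses the combination libraries. Neither is fully independent of the choice.

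SK-N-BE(2) is an established human neuroblastoma cell line that carries amplified MYCN. Its cells were transduced with lentiviral shRNA vectors and harvested after 72 h. The BAF chromatin remodelling complex contains either ARID1A or ARID1B as a structural subunit, never both. The 21 libraries form 7 groups of 3: Control (a non-silencing shRNA), shARID1A.2 and shARID1A.4 (2 shRNAs against ARID1A), shARID1B.2 and shARID1B.3 (2 shRNAs against ARID1B), and shARID1A/B.2.3 and shARID1A/B.4.2 (2 combinations of shRNAs against both genes). All libraries come from this 1 line, and the labels do not say whether the 3 libraries of a group are separate cultures, so p-values measure the spread between these libraries. Accessibility does not measure how far ARID1A or ARID1B was depleted.

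NFI proteins bind DNA as dimers. Each partner reads TTGGC, and the full site holds TTGGC and, after a gap of 5 bases, its mirror GCCAA. The family is known for driving glial differentiation in the developing nervous system, and NFIB also for keeping distal regulatory sites open in some neuroendocrine tumours. NFIA and NFIB act in astrocyte and forebrain development, NFIX in neural stem cells and muscle, and NFIC in tooth root formation.

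The libraries held between 16140029 and 44472230 reads in consensus sites. Levels are given as CPM, the read counts of a site scaled to the TMM-adjusted total of its library. A site was called closed or opened when edgeR's quasi-likelihood test, fitted on all 21 libraries, gave a Benjamini-Hochberg false discovery rate (FDR) under 0.01 over 357029 tested sites. Between pairs of replicates the variance was 1.08 to 2.51 times that of the sampling noise of their counts. The highest values, 1.84 to 2.51, came from pairs with Control replicate 2 or shARID1A/B.2.3 replicate 2. As a check of the cell type, 5 of 9 adrenergic neuroblastoma genes had a promoter site, at 2.43 to 43.9 CPM in Control, against 2 of 7 genes of other cell types, at 1.34 and 2.08 CPM.

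Most NFI sites lay inside introns. By annotation 65 of the 79 were intronic, 9 intergenic, 4 promoter-TSS and 1 exonic, and their median length was 1051 bases against 760 for all consensus sites. A site is named below by its gene and its distance in bases from the TSS, with a minus sign for sites upstream. Of the 79 sites, 77 had enough reads to be tested, and the filter on low counts left out NFIX -16371 (1 to 16 reads per library) and NFIB -31832 (0 to 16 reads). Naming by the nearest TSS leaves out much of the gene bodies. Of 28 sites annotated inside NFIA only 3 carry its name, because 18 lie nearer to the start of RP5-833A20.1 and 7 to that of LOC102724281, whereas 41 of 62 sites inside NFIB, 9 of 18 inside NFIC and 13 of 22 inside NFIX carry the name of the gene around them.

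The sequences below show the letters that led to the choice of the family. The shorter palindrome, TGGC and GCCA with 5 bases between them, was found in the middle 300 bases of 2 NFI sites, both in intron 2 of NFIB, and is set in capitals with 9 flanking bases on each side (GRCh38, plus strand).
NFIB +104515, chr9:14209493-14209523: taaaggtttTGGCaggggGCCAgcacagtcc
NFIB +17367, chr9:14296628-14296658: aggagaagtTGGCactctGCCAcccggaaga
The first of these sites was called closed after combined silencing and the second was not called.

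The next 3 sequences are the middle 300 bases of the NFIB site with the largest estimated fall, of the NFIX site with the largest estimated fall, and of the NFIX site that differed most between ARID1A and ARID1B silencing. Capitals mark TTGGC or GCCAA.
NFIB -59057, chr9:14373049-14373348: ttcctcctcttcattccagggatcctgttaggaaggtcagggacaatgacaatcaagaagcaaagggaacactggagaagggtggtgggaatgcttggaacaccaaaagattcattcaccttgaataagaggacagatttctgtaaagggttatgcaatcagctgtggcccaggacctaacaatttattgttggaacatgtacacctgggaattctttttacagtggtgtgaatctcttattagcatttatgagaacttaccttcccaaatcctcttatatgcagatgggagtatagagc
NFIX +30886, chr19:13055216-13055515: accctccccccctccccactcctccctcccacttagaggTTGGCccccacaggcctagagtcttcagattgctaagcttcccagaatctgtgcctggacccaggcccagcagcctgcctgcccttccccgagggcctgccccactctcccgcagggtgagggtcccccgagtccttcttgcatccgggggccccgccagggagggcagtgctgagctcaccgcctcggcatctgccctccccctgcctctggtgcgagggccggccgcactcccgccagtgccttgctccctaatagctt
NFIX +12261, chr19:13036591-13036890: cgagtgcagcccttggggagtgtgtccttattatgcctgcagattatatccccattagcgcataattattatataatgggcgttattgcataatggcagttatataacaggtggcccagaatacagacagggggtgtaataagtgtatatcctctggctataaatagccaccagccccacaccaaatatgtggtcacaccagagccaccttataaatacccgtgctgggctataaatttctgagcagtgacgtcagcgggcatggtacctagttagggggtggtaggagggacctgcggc
TTGGC or GCCAA stood in this window in 46.5% of all tested sites, so its presence or absence in any 1 of them is common.

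The last 2 sequences are the RefSeq promoters (GRCh38.p14) inside the sites NFIC +34 and NFIX +227, which were both called opened after combined silencing and differ in base composition. Capitals mark GGGCGG, a GC box, or its reverse complement CCGCCC.
NFIC, chr19:3359380-3359679: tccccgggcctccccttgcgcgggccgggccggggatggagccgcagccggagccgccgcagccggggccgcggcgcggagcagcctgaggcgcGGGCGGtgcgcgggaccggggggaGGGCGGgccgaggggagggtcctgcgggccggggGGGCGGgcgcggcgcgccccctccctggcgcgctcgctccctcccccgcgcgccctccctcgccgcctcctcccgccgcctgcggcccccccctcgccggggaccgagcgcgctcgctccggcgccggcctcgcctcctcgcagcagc
NFIX, chr19:13024529-13024828: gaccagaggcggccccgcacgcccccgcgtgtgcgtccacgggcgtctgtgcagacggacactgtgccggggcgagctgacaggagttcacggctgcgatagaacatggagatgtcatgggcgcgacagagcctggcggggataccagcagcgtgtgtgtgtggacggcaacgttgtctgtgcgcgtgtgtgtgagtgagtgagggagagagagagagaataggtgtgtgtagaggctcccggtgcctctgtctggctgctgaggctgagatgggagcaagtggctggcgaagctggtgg
A GC box on either strand stood in 45% of 35116 RefSeq promoters and in 12 of 19 promoters of the 4 NFI genes, all of which were found in the promoter table. The NFIC window held 3 and the NFIX window none.

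The measure that chose the family was the share of distal sites, those not annotated promoter-TSS, with the NFI pattern in their middle 300 bases, searched on both strands. The shorter palindrome stood in 3.25% of 36088 distal sites closed after combined silencing, in 1.10% of 300496 not called and in 0.59% of 8135 opened. The full palindrome was rarer, at 0.26%, 0.0659% and 0.0246%, and the single-arm site TTGGCA stood in 22.3%, 16.9% and 11.9%. Patterns of other factors, searched beside it, ran in the same order. The AP-1 pattern TGANTCA stood in 14.3%, 10.8% and 7.04%, and the GATA pattern AGATAA in 24.8%, 16.7% and 10.4%. Over all 357029 tested sites these shares were 1.30%, 0.084%, 17.1%, 10.9% and 17%. The NFI genes' own sites were close to those levels. The shorter palindrome stood in 2 of the 77 tested NFI sites (2.6%) and the single-arm site in 16 (20.8%). The AP-1 pattern stood in 6 (7.79%) and the GATA pattern in 10 (13%). Of the 9 NFI sites closed after combined silencing, 3 held the single-arm site and 3 the GATA pattern.

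**Figure D1:**
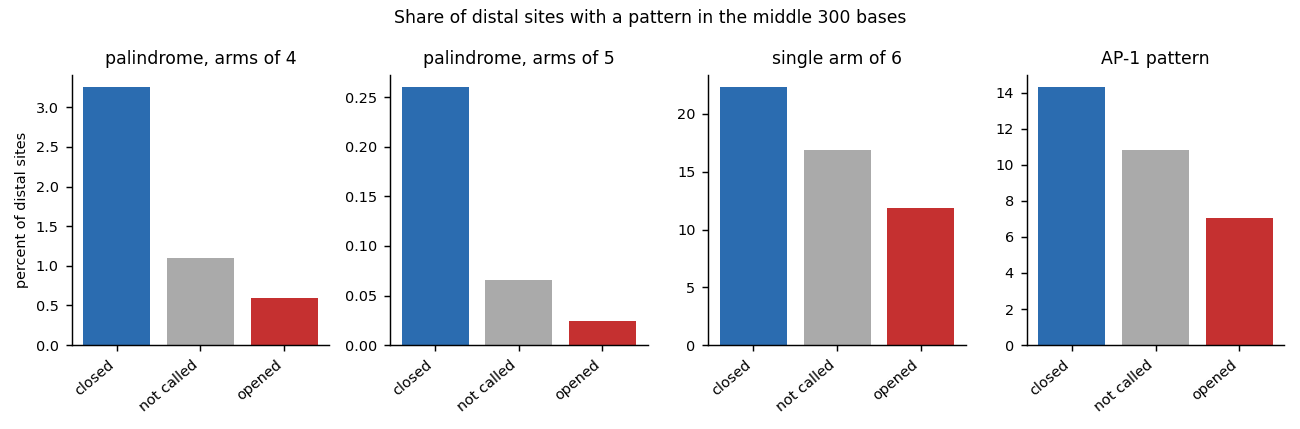
Percent of distal sites with a pattern in the middle 300 bases (y axis, a separate scale in each panel). Sites are split into closed, not called and opened after combined silencing. The GATA pattern is not drawn. The palindrome with arms of 4 letters stands in 3.25% of closed and 0.59% of opened sites.

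NFIB carried the most accessible sites of the family. The highest in Control was the promoter-TSS site NFIB -550 (chr9:14312905-14316477) at 41.3 ± 2.14 CPM (SD, n = 3), followed by the intron 2 site NFIB +43104 (chr9:14270350-14271725) at 30.5 ± 1.91 CPM and the other NFIB promoter-TSS site, NFIB -8582 (chr9:14322159-14323287), at 28.7 ± 1.24 CPM. The median tested site held 8.59 CPM in Control for NFIA, 2.20 for NFIB, 1.52 for NFIC and 1.60 for NFIX, against 1.04 for all tested sites. Per kb of site, the summed level in Control was 5.71 ± 0.296 CPM for NFIA, 4.19 ± 0.163 for NFIB, 2.42 ± 0.483 for NFIC and 2.04 ± 0.451 for NFIX (SD, n = 3). The Control libraries of NFIA and NFIB therefore lay above those of NFIC and NFIX, and the values of NFIC and NFIX differed by less than their spread.

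Summed over all sites of a gene, accessibility moved in different directions between genes and groups. The 3 Control libraries held 204, 189 and 197 CPM over the 43 NFIB sites, the shARID1A/B.2.3 libraries 173, 160 and 165 CPM, and the shARID1A/B.4.2 libraries 205, 204 and 204 CPM. NFIB was thus lower than Control in every shARID1A/B.2.3 library and slightly higher in every shARID1A/B.4.2 library, and the combinations together overlapped Control. NFIB had its highest mean in shARID1A.4 (212 ± 10.8 CPM) and its lowest in shARID1A/B.2.3 (166 ± 6.41 CPM), with shARID1A/B.4.2, shARID1B.2, Control, shARID1A.2 and shARID1B.3 between them in falling order. In that order the libraries of every neighbouring pair of groups overlapped, although every shARID1B.3 library lay below the Control libraries.

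The order of the groups differed between the genes. NFIA was highest in shARID1A/B.4.2 (47.9 ± 1.65 CPM) and shARID1A.4 (47.9 ± 3.22 CPM), both with every library above the 3 Control libraries at 41.8, 37.6 and 39.7 CPM, and the 5 remaining groups lay between 38.8 and 41.2 CPM with overlapping libraries. NFIC was lowest in Control, at 54.4, 38.6 and 57.2 CPM. It was highest in shARID1A.4 (66.5 ± 6.72 CPM) and shARID1A/B.4.2 (66.4 ± 4.69 CPM), both with every library above Control. NFIX lay between 25.8 ± 3.19 CPM in shARID1A/B.2.3 and 32.7 ± 3.60 CPM in shARID1B.3, and the libraries of all neighbouring groups overlapped. Control replicate 2 was the lowest of the Control libraries for all 4 genes, at 20.6 CPM for NFIX against 30.7 and 31.6 CPM in the others.

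**Figure D2:**
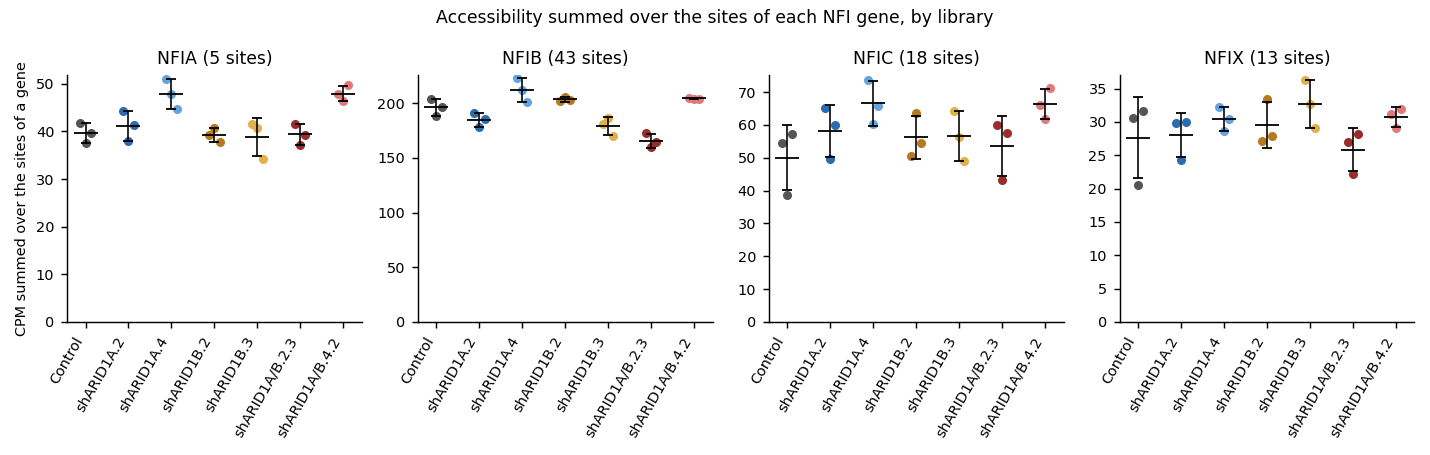
CPM summed over the sites of each NFI gene (y axis, starting at 0) in each library (points) of the 7 groups, with the group mean and SD in black. NFIB is lowest in shARID1A/B.2.3 at 166 CPM, and NFIC is lowest in Control at 50.05 CPM.

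Taking both combinations against Control, the log2 ratio of the summed level was 0.14 for NFIA, -0.09 for NFIB, 0.26 for NFIC and 0.03 for NFIX. These values rest on the scaling. Factors computed on promoter-TSS sites alone moved every log2 change of combined silencing by -0.24, of ARID1A silencing by -0.20 and of ARID1B silencing by -0.14, and the ratios became -0.11, -0.33, 0.02 and -0.20, so the signs of NFIA and NFIX turned. Which scaling is nearer to the truth cannot be told from these data. The shift is the same for every gene.

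After combined silencing 17 of the 77 tested NFI sites were called, 9 closed and 8 opened. Over all tested sites 10.3% were closed and 3.43% opened. Since this contrast led to the choice of the family, nothing is read from the comparison with the background. NFIB held 7 of the closed sites and 1 of the opened ones, NFIC 1 and 3, NFIX 1 and 3, and NFIA a single opened site. Median log2 changes were -0.08 for NFIB, 0.28 for NFIC, 0.19 for NFIX and 0.15 for NFIA, against 0.03 over all tested sites. Promoter-based scaling gave 18 closed and 1 opened site, and offsets that follow the abundance of a site gave 8 and 11. The opened count was 4 without Control replicate 2 or 3, 5 without shARID1A/B.4.2 replicate 3 and 14 without shARID1A/B.2.3 replicate 2.

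By position, 4 of the 6 tested sites within 3000 bases of a TSS were called opened, and the other 4 opened sites and all 9 closed sites lay among the 71 tested sites farther away (5.634% and 12.68%). Among all tested sites within 3000 bases of a TSS 23.86% were opened and 6.208% closed, and beyond that distance 1.878% and 10.57%, and as for the other counts of this contrast nothing is read from the comparison. The plot of change against distance shows the closed NFIB sites far upstream of the TSS and spread along intron 2.

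**Figure D3:**
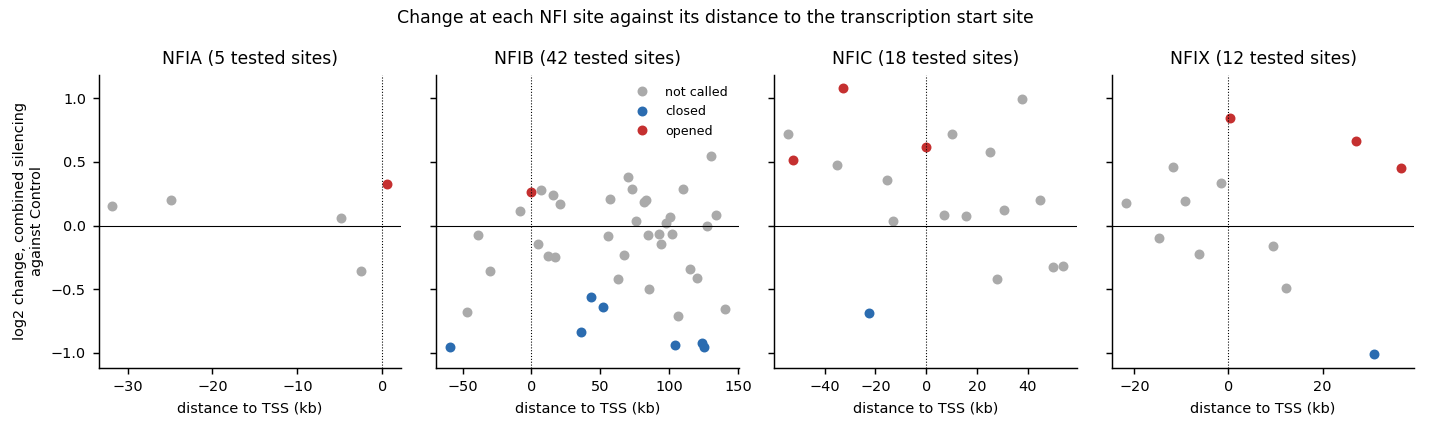
log2 change after combined silencing against Control (y axis) of each tested site of each NFI gene against its distance from the TSS in kb (x axis), with closed sites in blue, opened sites in red and other sites in grey. The 7 closed NFIB sites lie between 59057 bases upstream and 125540 bases downstream of the TSS, and the site nearest to each TSS is called opened. Scaling on promoter-TSS sites alone lowers every value by 0.24 and turns the sign of the smaller rises.

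The closed NFIB sites lay in introns. Those named for their fall after combined silencing were picked with the Control libraries that the single contrasts reuse. Their single contrasts are therefore not independent of how they were picked. NFIB -59057 (chr9:14372405-14373991, intron 1) held 7.41, 5.34 and 5.61 CPM in the Control libraries, 2.50, 2.35 and 2.59 CPM in shARID1A/B.2.3 and 3.54, 4.05 and 4.36 CPM in shARID1A/B.4.2. All combination libraries lay below all Control libraries, and those of shARID1A/B.2.3 below those of shARID1A/B.4.2. Its log2 change after combined silencing was -0.96 (SE 0.117). With 1 subunit silenced it held 4.62, 4.26 and 4.45 CPM in shARID1A.2, 5.13, 4.67 and 4.76 in shARID1A.4, 6.02, 6.38 and 6.30 in shARID1B.2 and 3.40, 3.87 and 3.53 in shARID1B.3. Both ARID1A groups and shARID1B.3 thus lay below every Control library, whereas shARID1B.2 lay within the Control range. Neither single contrast passed the threshold, at log2 -0.39 (SE 0.115, FDR = 0.0135 in edgeR) for ARID1A and -0.36 (SE 0.112, FDR = 0.0284 in edgeR) for ARID1B. With promoter-based scaling both were calls (-0.59, FDR = 5.01e-05, and -0.50, FDR = 0.000667 in edgeR), and ARID1A also with total counts (FDR = 0.00917). The difference between the ARID1B shRNAs was itself called, with shARID1B.3 lower by a log2 value of -0.78 (SE 0.133, FDR = 3.46e-06 in edgeR).

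NFIB +43104 is the strongest intronic site of the family, with 397 to 916 reads per library. It held 30.0, 32.6 and 28.9 CPM in Control, 17.9, 19.0 and 18.9 CPM in shARID1A/B.2.3 and 23.1, 22.5 and 22.8 CPM in shARID1A/B.4.2. The combination libraries did not overlap Control, and the log2 change was -0.56 (SE 0.0774). In the ARID1B groups it held 31.2, 26.5 and 28.1 CPM with shARID1B.2 and 20.6, 21.3 and 16.9 CPM with shARID1B.3. It fell after ARID1B silencing by a log2 value of -0.36 (SE 0.0772, FDR = 0.000427 in edgeR), and this call rested on shARID1B.3, which was lower than shARID1B.2 by -0.54 (SE 0.0909, FDR = 3.41e-06 in edgeR). Without Control replicate 2 the ARID1B value was -0.29 (FDR = 0.0228 in edgeR). With ARID1A silenced it held 28.7, 26.4 and 28.5 CPM in shARID1A.2 and 26.5, 25.0 and 24.9 CPM in shARID1A.4, all below the Control libraries, with a log2 change of -0.19 (SE 0.0778, FDR = 0.0995 in edgeR). Scaling on promoter-TSS sites and abundance-following offsets both made this a call, at -0.40 (FDR = 6.06e-06) and -0.32 (FDR = 0.000107 in edgeR).

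NFIB +104515 (chr9:14209313-14209940, intron 2) is the closed site with the palindrome printed above. It held 4.14, 3.94 and 3.85 CPM in Control, 1.64, 1.63 and 1.80 CPM in shARID1A/B.2.3 and 2.96, 2.35 and 2.37 CPM in shARID1A/B.4.2, a log2 change of -0.94 (SE 0.143). In the ARID1A groups it held 1.22, 1.95 and 1.89 CPM with shARID1A.2 but 3.07, 4.39 and 4.51 CPM with shARID1A.4. shARID1A.2 thus lay near the lower combination, and shARID1A.4 overlapped Control. The fall after ARID1A silencing was -0.62 (SE 0.143, FDR = 0.000994 in edgeR), and the shRNAs differed by -1.22 (SE 0.183, FDR = 4.95e-07 in edgeR). Leaving out shARID1A.4 replicate 1 ended the ARID1A call (-0.50, FDR = 0.0136 in edgeR). With ARID1B silenced all 6 libraries lay below Control, at 2.51, 3.10 and 2.99 CPM for shARID1B.2 and 2.76, 3.26 and 2.27 CPM for shARID1B.3, yet the value of -0.48 (SE 0.137, FDR = 0.0131 in edgeR) missed the threshold. It passed when shARID1B.3 replicate 2 was left out (-0.54, FDR = 0.00962), with the replicate block (-0.48, FDR = 0.00967) and with promoter-based scaling (-0.64, FDR = 0.00125 in edgeR).

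NFIB +125540 (chr9:14187841-14189362, intron 2) showed the same split between the ARID1A shRNAs. It held 6.83, 5.05 and 5.33 CPM in Control, 3.21, 3.00 and 3.73 CPM in shARID1A.2 and 5.91, 4.71 and 5.01 CPM in shARID1A.4. The combinations held 2.79, 1.83 and 2.46 CPM (shARID1A/B.2.3) and 3.14, 4.60 and 3.52 CPM (shARID1A/B.4.2), all below Control, with a log2 change of -0.95 (SE 0.128). After ARID1A silencing it fell by -0.46 on the log2 scale (SE 0.126, FDR = 0.00724 in edgeR), with shARID1A.2 below shARID1A.4 by -0.66 (SE 0.156, FDR = 0.00321 in edgeR). That ARID1A call was lost without any 1 of Control replicates 1 and 3, shARID1A.2 replicates 1 and 2 and shARID1A.4 replicates 2 and 3 (log2 -0.32 to -0.51, FDR 0.0118 to 0.174 in edgeR), and also without any 1 of 6 libraries outside the contrast (-0.43, FDR 0.0103 to 0.0155). It was also lost in DESeq2 (adjusted p = 0.0269), with GC offsets (-0.39, FDR = 0.0231), with abundance-following offsets (-0.39, FDR = 0.022), without the filter on low counts (-0.43, FDR = 0.0138) and with DESeq2 size factors in edgeR (-0.44, FDR = 0.0103). The ARID1B groups held 4.45, 4.18 and 5.25 CPM and 4.88, 5.06 and 4.45 CPM, a log2 value of -0.27 (SE 0.121, FDR = 0.186 in edgeR).

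NFIB +36211 (chr9:14277254-14278607, intron 2) was the site at which the combinations were most alike, at 2.04, 2.28 and 2.55 CPM in shARID1A/B.2.3 and 2.42, 2.49 and 2.78 CPM in shARID1A/B.4.2. Control held 4.81, 4.03 and 4.13 CPM, and the log2 change was -0.84 (SE 0.131). The single contrasts were -0.38 (SE 0.129, FDR = 0.043) for ARID1A and -0.34 (SE 0.126, FDR = 0.0773 in edgeR) for ARID1B. Both became calls with promoter-based scaling (-0.57, FDR = 0.00104, and -0.49, FDR = 0.00745 in edgeR). The remaining closed NFIB sites were NFIB +52179 at -0.64 (SE 0.153) and NFIB +123719 at -0.93 (SE 0.277), both named here after their values were seen.

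The promoter-TSS site NFIB -550 rose, whereas the intronic sites above, most of them picked for their falls, were lower. Not all introns fell. NFIB +6585 (0.28, SE 0.0995) and NFIB +110266 (0.29, SE 0.137), named after their values were seen, rose without a call. The 40 tested intronic NFIB sites had a median of -0.11. Over all tested sites 33.4% of promoter-TSS and 2.091% of intronic sites were opened after combined silencing. NFIB -550 held 42.3, 42.9 and 38.9 CPM in Control, 49.5, 48.4 and 47.3 CPM in shARID1A/B.2.3 and 50.5, 49.8 and 51.8 CPM in shARID1A/B.4.2. Every combination library lay above every Control library, with a log2 change of 0.26 (SE 0.0738). The single contrasts were 0.20 (SE 0.0740, FDR = 0.0612) for ARID1A and 0.13 (SE 0.0736, FDR = 0.354 in edgeR) for ARID1B. The combined value dropped to 0.02 with promoter-based scaling, to 0.08 with offsets that follow GC content and to 0.01 with abundance-following offsets, none of them a call, and leaving out Control replicate 1 or 3 or shARID1A/B.4.2 replicate 3 also ended it (0.22 to 0.28). NFIB -8582 had a combined value of 0.11 (SE 0.0785), which turned to -0.13 with promoter-based scaling.

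**Figure D4:**
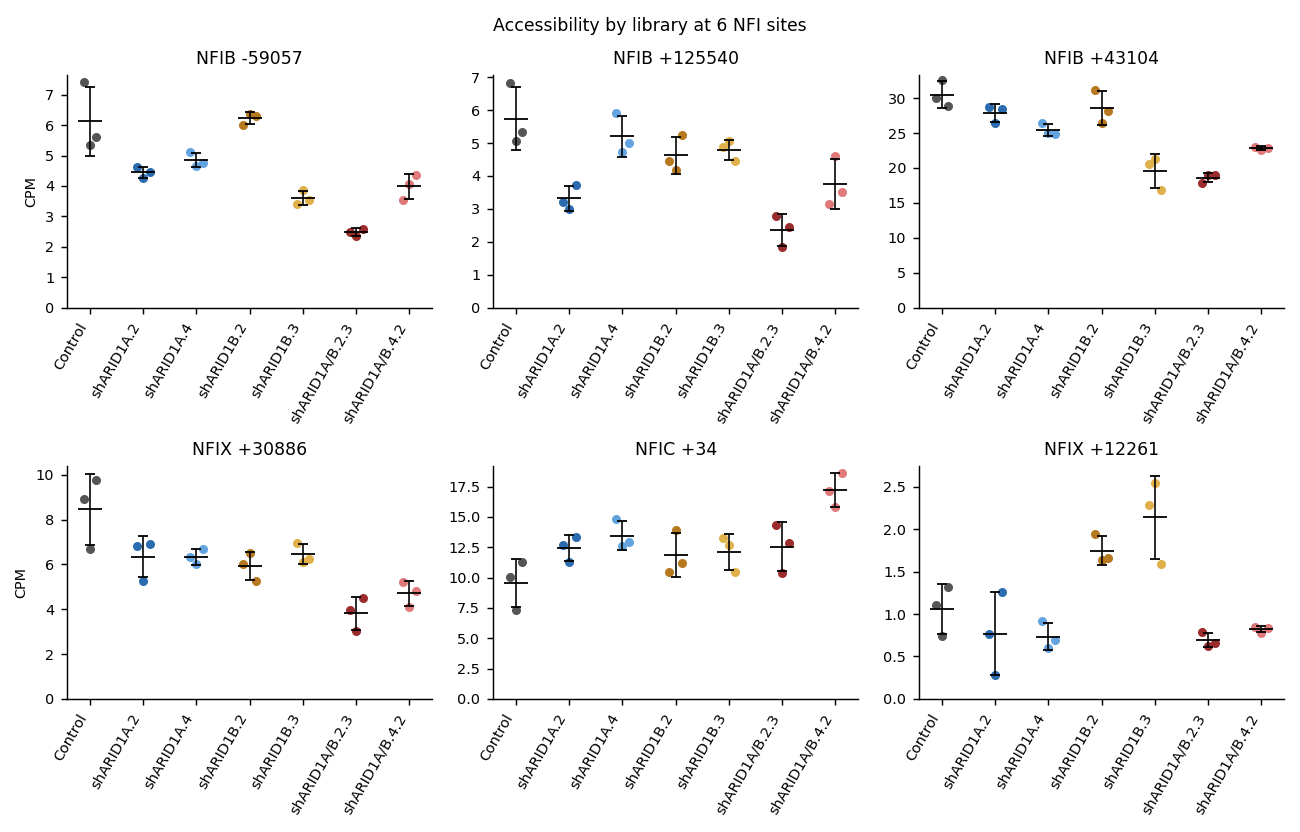
CPM (y axis, starting at 0) in each library (points) at 6 NFI sites, with the mean and SD of each group in black. NFIB -59057, NFIB +125540, NFIB +43104 and NFIX +30886 are lower in all 6 combination libraries than in Control, NFIC +34 is highest in shARID1A/B.4.2 at 17.2 CPM, and NFIX +12261 is highest in the ARID1B groups.

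NFIX had 1 closed site, the strongest of the gene. NFIX +30886 (chr19:13054418-13056313, intron 2) held 8.90, 6.70 and 9.78 CPM in Control, 3.97, 3.02 and 4.48 CPM in shARID1A/B.2.3 and 5.20, 4.10 and 4.82 CPM in shARID1A/B.4.2. Its log2 change after combined silencing, -1.01 (SE 0.115), was the largest fall of any NFI site. With 1 subunit silenced its group means were close together, at 6.35 ± 0.923 CPM (shARID1A.2), 6.34 ± 0.347 (shARID1A.4), 5.92 ± 0.628 (shARID1B.2) and 6.46 ± 0.457 (shARID1B.3; SD, n = 3). It fell after ARID1A silencing by -0.42 (SE 0.113, FDR = 0.00592 in edgeR) and after ARID1B silencing by -0.45 (SE 0.111, FDR = 0.00279 in edgeR), and these contrasts share the Control libraries. The site was also named for its fall from those Control libraries, so these tests are not independent of how it was picked. The combinations lay below all single-shRNA libraries, with a log2 difference of -0.57 (SE 0.0878). The ARID1A call was lost without any 1 of Control replicates 1 and 3, shARID1A.2 replicate 2 and shARID1A.4 replicates 1 and 2 (log2 -0.30 to -0.40, FDR 0.0185 to 0.165 in edgeR), without any 1 of 6 libraries outside the contrast (-0.39, FDR 0.0101 to 0.0138), without the filter on low counts (FDR = 0.0127) and with only the compared groups (FDR = 0.0103). The ARID1B call was lost without any 1 of Control replicates 1 and 3, shARID1B.2 replicate 3 and shARID1B.3 replicate 2 (log2 -0.33 to -0.42, FDR 0.0158 to 0.118), and DESeq2 called neither (adjusted p = 0.0271 and 0.0178).

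The other called NFIX sites were opened. NFIX +227 (chr19:13024339-13025074, intron 1), which covers the promoter printed above, held 1.68, 1.07 and 1.002 CPM in Control against 1.97, 1.35 and 1.98 CPM in shARID1A/B.2.3 and 3.05, 2.71 and 2.78 CPM in shARID1A/B.4.2, a log2 change of 0.84 (SE 0.191). It rose after ARID1A silencing (0.73, SE 0.198, FDR = 0.00594 in edgeR) and after ARID1B silencing (0.81, SE 0.192, FDR = 0.00177 in edgeR). The shARID1A.2 and shARID1A.4 libraries held 1.95, 1.99 and 2.25 CPM and 2.20, 1.66 and 2.32 CPM. The shARID1B.2 and shARID1B.3 libraries held 1.71, 2.93 and 2.71 CPM and 2.34, 1.77 and 1.60 CPM. Some libraries of each contrast overlapped Control replicate 1, the highest of the Control libraries. Without Control replicate 2 or 3 both single contrasts lost their call (ARID1A 0.66, FDR = 0.0457, and 0.59, FDR = 0.0887, and ARID1B 0.73, FDR = 0.0233, and 0.67, FDR = 0.0474 in edgeR). The ARID1A call was also lost without shARID1A.2 replicate 3 or shARID1A.4 replicate 1 or 3 (0.69 to 0.73, FDR 0.0131 to 0.0167). The combined call was lost without Control replicate 3 (0.70). With promoter-based scaling none of the 3 contrasts passed (0.61, 0.54 and 0.66), and DESeq2 did not call the ARID1A value (adjusted p = 0.0136).

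NFIX +27135 (log2 0.66, SE 0.172) and NFIX +36578 (0.45, SE 0.123), both named after their values were seen, were the further opened NFIX sites after combined silencing. NFIX +27135 also rose after ARID1B silencing (0.67, SE 0.173, FDR = 0.00511 in edgeR).

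At NFIC the TSS site opened most firmly. NFIC +34 (chr19:3357920-3361449, promoter-TSS), a site of 3530 bases with 72.8% GC, held 10.1, 7.36 and 11.26 CPM in Control, 14.3, 10.4 and 12.9 CPM in shARID1A/B.2.3 and 17.2, 15.8 and 18.6 CPM in shARID1A/B.4.2. shARID1A/B.4.2 lay above every other library at this site, and shARID1A/B.2.3 overlapped Control. Combined silencing gave a log2 change of 0.62 (SE 0.106), and of 0.38 with promoter-based scaling. It rose after ARID1A silencing by 0.44 (SE 0.107, FDR = 0.00194 in edgeR), with 12.7, 11.29 and 13.3 CPM in shARID1A.2 and 14.8, 12.6 and 12.96 CPM in shARID1A.4, all above Control, although shARID1A.2 replicate 2 only just. That call was lost without Control replicate 2 (0.30, FDR = 0.0827), with GC offsets (0.15, FDR = 0.32) and with promoter-based scaling (0.24, FDR = 0.051 in edgeR). After ARID1B silencing it was 0.33 (SE 0.106, FDR = 0.0361 in edgeR), and it passed at 0.47 (FDR = 0.0076) without Control replicate 3 and at 0.35 (FDR = 0.00926) without shARID1A/B.2.3 replicate 2. The second NFIC promoter-TSS site, NFIC +6987, had a combined value of 0.08 (SE 0.122), and -0.15 with promoter-based scaling.

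NFIC also had upstream intergenic sites that opened. NFIC -52248 (chr19:3306463-3308342) held 5.73, 4.40 and 5.45 CPM in Control. It held 8.92, 6.34 and 6.92 CPM in shARID1A.2, 8.24, 6.75 and 7.58 CPM in shARID1A.4, 6.39, 7.67 and 6.21 CPM in shARID1B.2 and 8.82, 8.71 and 6.05 CPM in shARID1B.3. All 12 single-shRNA libraries lay above the Control libraries. It rose by 0.52 after ARID1A silencing (SE 0.126, FDR = 0.00165 in edgeR) and by 0.50 after ARID1B silencing (SE 0.125, FDR = 0.00349 in edgeR), and the combinations had the same value, 0.52 (SE 0.125). Without Control replicate 2 the calls were lost, at 0.44 (FDR = 0.0266) for ARID1A, 0.41 (FDR = 0.0548) for ARID1B and 0.43 for the combinations. The ARID1A call was also lost without shARID1A.2 replicate 1 (0.45, FDR = 0.0127), and the ARID1B call without Control replicate 3, shARID1B.2 replicate 2 or shARID1B.3 replicate 2 (0.45 to 0.54, FDR 0.011 to 0.0155 in edgeR). Promoter-based scaling also ended all 3 calls (0.28 to 0.35), and DESeq2 that of ARID1B (adjusted p = 0.0137).

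NFIC -15492 (chr19:3343710-3344606) separated the subunits. It held 7.24, 5.36 and 6.47 CPM in shARID1A.2 and 7.004, 6.61 and 6.51 CPM in shARID1A.4, against 4.07, 5.53 and 4.74 CPM in shARID1B.2 and 5.44, 5.27 and 4.75 CPM in shARID1B.3. All ARID1A libraries but shARID1A.2 replicate 2 lay above all ARID1B libraries. Its log2 difference between ARID1A and ARID1B silencing was 0.39 (SE 0.0988, FDR = 0.00353 in edgeR), and against Control, at 4.43, 3.57 and 6.09 CPM, it was 0.47 for ARID1A (SE 0.124, FDR = 0.00481 in edgeR) and 0.07 for ARID1B (SE 0.126, FDR = 0.817 in edgeR). The difference was lost without any 1 of shARID1A.2 replicates 1 and 3, shARID1A.4 replicate 1, shARID1B.2 replicates 1 and 3 and shARID1B.3 replicate 3 (0.34 to 0.39, FDR 0.0111 to 0.0292 in edgeR), and narrowly in DESeq2 (adjusted p = 0.0104). The ARID1A call was lost without Control replicate 1 or 2 or shARID1A.2 replicate 1 or 3 (0.32 to 0.46, FDR 0.0108 to 0.13 in edgeR), and with promoter-based scaling (0.27, FDR = 0.11 in edgeR). NFIC +10361 in intron 1, named after its value was seen, was the remaining site opened after ARID1A silencing (0.87, SE 0.225, FDR = 0.00386 in edgeR). NFIC -22635 (-0.69, SE 0.201) and NFIC -32604 (1.08, SE 0.309), named in the same way, were the closed NFIC site and the third opened one after combined silencing.

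In the contrasts of combined, ARID1A and ARID1B silencing against Control, NFIA had a single called site. With shARID1A/B.4.2 taken alone, 2 NFIA sites were opened and 0 closed. NFIA +602 (chr1:61081947-61083874, intron 1) held 8.76, 8.46 and 8.54 CPM in Control, 11.4, 8.85 and 10.2 CPM in shARID1A.2 and 12.7, 10.9 and 11.8 CPM in shARID1A.4. All 6 ARID1A libraries lay above Control, and the rise was 0.35 (SE 0.0988, FDR = 0.00952 in edgeR). The combinations diverged, with 9.32, 8.11 and 9.71 CPM in shARID1A/B.2.3, which overlapped Control, and 12.8, 12.9 and 13.1 CPM in shARID1A/B.4.2, which did not. The combined value was 0.33 (SE 0.0977), no longer called without any 1 Control library, shARID1A.2 replicate 3, shARID1A/B.2.3 replicate 3 or shARID1A/B.4.2 replicate 3 (0.32 to 0.35), with GC offsets (0.06), with promoter-based scaling (0.09) or with only the compared groups (0.33). shARID1A/B.2.3 lay below shARID1A/B.4.2 by -0.53 (SE 0.108, FDR = 2.00e-04 in edgeR). After ARID1B silencing the value was 0.07 (SE 0.0987, FDR = 0.788 in edgeR). The ARID1A call was lost without any 1 Control library, without shARID1A.2 replicate 1 or 3 and without shARID1A.4 replicate 1 or 3 (0.30 to 0.36, FDR 0.016 to 0.0451), without shARID1B.2 replicate 1 or 3 or shARID1A/B.4.2 replicate 3 (0.35, FDR 0.0109 to 0.0122), and also with GC offsets (0.10, FDR = 0.594) and promoter-based scaling (0.15, FDR = 0.277 in edgeR). The exonic site NFIA -4860 (chr1:61076687-61078210) was the highest of the gene in Control, at 13.2 ± 0.587 CPM, and had a combined value of 0.06 (SE 0.0887), which turned to -0.18 with promoter-based scaling.

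Sites inside the NFI genes that carry another gene's name were counted apart. Of 25 such sites inside the NFIA body, all tested, 8 were closed after combined silencing, with a median log2 change of -0.59. After ARID1A silencing 1 was closed, and after ARID1B silencing 3. Among all tested intronic sites the closed shares were 12.01%, 6.007% and 3.799%. Inside NFIB 3 of 21 sites named after other genes were closed after combined silencing (median -0.20), and inside NFIC and NFIX 0 of 9 each. Of those 21 NFIB sites 0 were closed or opened after either single silencing. The gene sums above leave these sites out.

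After ARID1A silencing alone 9 of the 77 NFI sites were called, 3 closed (NFIB +104515, NFIB +125540 and NFIX +30886) and 6 opened (1 for NFIA, 4 for NFIC and 1 for NFIX). The background was 5.37% closed and 1.67% opened. Scaling on promoter-TSS sites gave 8 closed and 0 opened sites in edgeR, with 7 rises at an unadjusted p under 0.05, so the balance of rises and falls depends on the scaling. The opened count was 0 in edgeR without Control replicate 2 (11 rises at an unadjusted p under 0.05), 3 without shARID1A.2 replicate 1 and 2 without its replicate 3, and 4 in DESeq2. The closed count was 1 without Control replicate 1 or 3, shARID1A.2 replicate 2 or shARID1A.4 replicate 1 or 2, and 1 in DESeq2. It was also 1 without shARID1A/B.2.3 replicate 1 or 3, shARID1A/B.4.2 replicate 1 or 2 or shARID1B.3 replicate 1 or 2, which enter the fit but not the contrast. The fourth opened NFIC site is NFIC +10361. Within 3000 bases of a TSS 3 of 6 NFI sites opened, against 12.52% of all such sites.

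After ARID1B silencing alone 6 NFI sites were called, 2 closed (NFIB +43104 and NFIX +30886) and 4 opened (NFIC -52248, NFIX +227, NFIX +12261 and NFIX +27135), at a background of 3.53% and 1.39%. NFIX thus held 3 of the 4 opened sites. Promoter-based scaling gave 5 closed and 0 opened sites in edgeR, with 8 rises at an unadjusted p under 0.05. Without Control replicate 2 the opened count was likewise 0 in edgeR (9 rises at an unadjusted p under 0.05), it was 2 without Control replicate 3 or shARID1B.2 replicate 2, and DESeq2 called 1 closed and 1 opened site. The closed count was 1 without any 1 Control library or shARID1B.2 replicate 3.

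**Figure D5:**
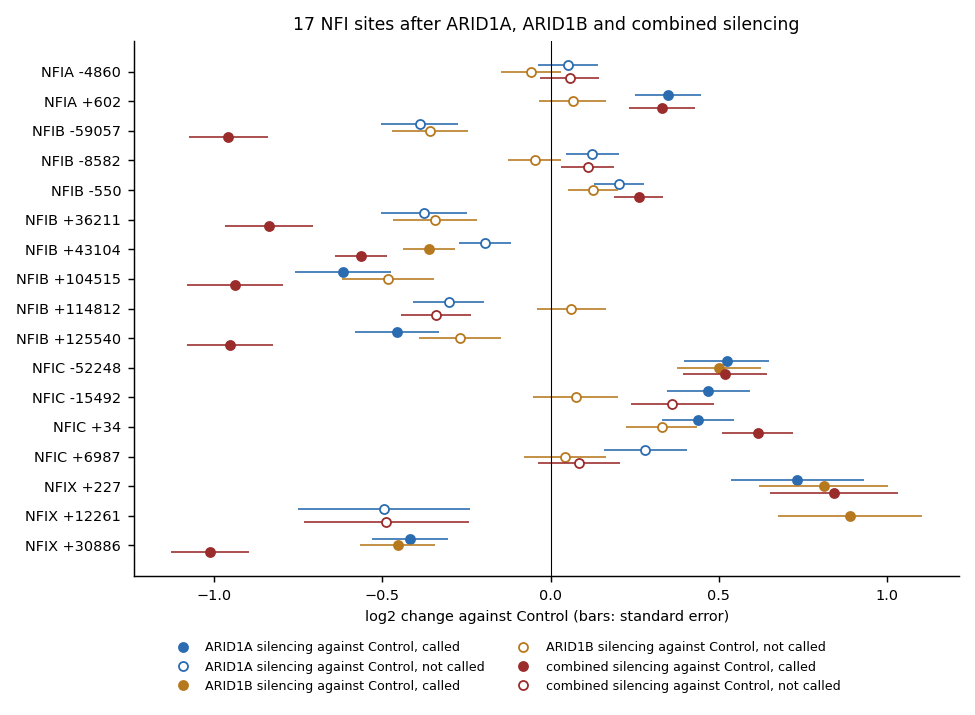
log2 change against Control (x axis) with its standard error at 17 NFI sites (y axis, named by gene and distance from the TSS in bases) after ARID1A (blue), ARID1B (orange) and combined (red) silencing, with filled points for sites called at an FDR under 0.01. Combined silencing gives the lowest value at the NFIB and NFIX sites that closed, such as -0.96 at NFIB -59057. Most of these sites were named for their fall after combined silencing, so nothing is read from that order. NFIX +12261 takes opposite signs after ARID1A (-0.50) and ARID1B (0.89) silencing. Scaling on promoter-TSS sites shifts the values left by 0.20, 0.14 and 0.24.

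The direct comparison of ARID1A with ARID1B silencing takes its difference from the single-shRNA libraries alone, and the Control and combination libraries enter only through the scaling, the filter and the shared estimate of the spread. It called 4 NFI sites, 3 lower with ARID1A silenced (NFIX +12261, NFIB +114812 and NFIB +127295) and 1 higher (NFIC -15492). The background was 3.69% lower and 1.05% higher. A second higher site, NFIA +602 (0.28 to 0.34), was called with total-count scaling, abundance-following offsets, no filter, only the compared groups or the replicate block, and without Control replicate 2, any 1 shARID1A/B.2.3 library, shARID1A.2 replicate 2 or shARID1B.2 replicate 2. Only 1 site was lower without shARID1A.4 replicate 3 or shARID1B.2 replicate 3.

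NFIX +12261 (chr19:13036456-13037024, intron 2, printed above) gave the largest difference between the subunits. It is a weak site, with 7 to 109 reads per library and a median of 23. It held 1.11, 0.740 and 1.32 CPM in Control, 0.770, 0.284 and 1.26 CPM in shARID1A.2 and 0.915, 0.601 and 0.689 CPM in shARID1A.4. With ARID1B silenced it held 1.94, 1.64 and 1.66 CPM in shARID1B.2 and 2.29, 2.54 and 1.60 CPM in shARID1B.3. Every ARID1B library lay above every ARID1A library and every Control library. The combinations held 0.788, 0.627 and 0.659 CPM and 0.851, 0.782 and 0.835 CPM, close to the ARID1A groups. The log2 difference of ARID1A from ARID1B silencing was -1.39 (SE 0.187, FDR = 1.14e-08 in edgeR), and it stayed a call in all 9 other settings and without any 1 of the 21 libraries. Against Control the site rose by 0.89 after ARID1B silencing (SE 0.213, FDR = 0.00204 in edgeR), and the ARID1A value was -0.50 (SE 0.255, FDR = 0.243 in edgeR). The rise was lost without Control replicate 2 (0.70, FDR = 0.056), in DESeq2 (adjusted p = 0.0159) and with promoter-based scaling (0.74, FDR = 0.0161 in edgeR).

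NFIB +114812 (chr9:14198540-14200118, intron 2) was lower after ARID1A than after ARID1B silencing by -0.36 (SE 0.0866, FDR = 0.0018 in edgeR). It held 5.16, 5.36 and 5.39 CPM in shARID1A.2 and 8.06, 8.04 and 6.57 CPM in shARID1A.4, against 8.20, 8.07 and 9.38 CPM in shARID1B.2 and 7.20, 8.20 and 8.07 CPM in shARID1B.3. The low values were those of shARID1A.2, which lay below shARID1A.4 by -0.52 (SE 0.129, FDR = 0.00528 in edgeR). The difference between the subunits was lost without shARID1A.4 replicate 3, shARID1B.2 replicate 3 or shARID1B.3 replicate 2 (-0.33 to -0.34, FDR 0.0123 to 0.0164 in edgeR). The same site held 5.19, 4.14 and 4.88 CPM in shARID1A/B.2.3 and 8.11, 8.56 and 7.84 CPM in shARID1A/B.4.2.

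Sites differed between the shRNAs against the same gene. Against Control, 4 sites were called with shARID1A.2, all closed and all of NFIB (background 4.54% closed and 0.834% opened), and 5 with shARID1A.4, all opened, 4 of NFIC and 1 of NFIA (background 4.17% and 2.28%). shARID1B.2 closed 1 NFIX site and opened 1 site each of NFIB and NFIX (background 1.84% and 1.34%), and shARID1B.3 closed 3 NFIB sites and opened 1 of NFIB, 2 of NFIC and 2 of NFIX (background 4.88% and 3.12%). As a description, shARID1A/B.2.3 closed 14 sites (11 of NFIB, 2 of NFIC and 1 of NFIX) and opened 1 of NFIX (background 10.4% and 2.85%), and shARID1A/B.4.2 closed 6 (5 of NFIB and 1 of NFIX) and opened 9 (background 7.37% and 3.97%).

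The tests of those differences themselves called 7 sites between shARID1A.2 and shARID1A.4 (6 of NFIB and 1 of NFIC, all lower in shARID1A.2), at a background of 2.57% in either direction. Between shARID1B.3 and shARID1B.2 8 sites were called (7 of NFIB and 1 of NFIA, background 7.21%), of which all but NFIB -47011 were lower in shARID1B.3. Between the combinations 16 sites were called (10 of NFIB and 2 each of NFIA, NFIC and NFIX, background 5.22%), all lower in shARID1A/B.2.3. The combination libraries also led to the choice of the family, so nothing is read from that comparison with the background. NFIB +119847, named after its values were seen, was called in all 3 tests, at -1.14 (SE 0.183, FDR = 2.75e-06) for the ARID1A shRNAs, -0.71 (SE 0.173, FDR = 0.00177) for the ARID1B shRNAs and -1.20 (SE 0.187, FDR = 7.64e-07 in edgeR) for the combinations.

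In the contrast of the combinations with the 4 single-shRNA groups 10 of 77 NFI sites were called lower, 5 of NFIB, 3 of NFIC and 2 of NFIX, and 0 were higher in edgeR (3 rises at an unadjusted p under 0.05, and 0 calls in DESeq2). The background was 6.85% lower and 0.969% higher. This contrast rests on the combination libraries that led to the family, and most of the sites with large values were named for their falls after combined silencing, so its values are a description and nothing is read from the comparison with the background. Abundance-following offsets gave 7 lower and 1 higher, and 5 were lower without shARID1A/B.2.3 replicate 2 or shARID1A/B.4.2 replicate 2. The log2 differences of the NFIB sites were -0.59 (SE 0.0968) at NFIB +125540, -0.58 (SE 0.0885) at NFIB -59057, -0.48 (SE 0.0987) at NFIB +36211, -0.39 (SE 0.110) at NFIB +104515 and -0.29 (SE 0.0566) at NFIB +43104. The value of NFIB +104515 no longer passed without any 1 of 13 of the 18 libraries compared (-0.34 to -0.40), in DESeq2 (-0.39), with GC offsets (-0.32), with abundance-following offsets (-0.33) or with total counts (-0.37). The NFIX sites were NFIX +30886, given above, and NFIX +12261 at -0.68 (SE 0.175). The latter no longer passed without shARID1A.2 replicate 3, shARID1A.4 replicate 1, shARID1A/B.2.3 replicate 2 or shARID1A/B.4.2 replicate 2 (-0.55 to -0.66), or in DESeq2 (-0.69). The NFIC sites were NFIC -22635, NFIC +28037 and NFIC +53855.

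Across the 21 libraries the summed levels of the NFI genes moved together to different degrees. As a description over libraries that share scaling and groups, Pearson's r of the log2 sums was 0.821 for NFIC and NFIX, 0.798 for NFIA and NFIC, 0.684 for NFIA and NFIB, 0.522 for NFIB and NFIC, 0.471 for NFIA and NFIX and 0.434 for NFIB and NFIX. Among 9086 genes with at least 10 tested sites the most alike by the same measure were E2F6 (r = 0.958), GK5 and ATR for NFIA, RP11-110H10.2 (r = 0.966), PYGL and LOC102724363 for NFIB, IAH1 (r = 0.968), NUP93 and RELT for NFIC, and MIR3074 (r = 0.969), KIF26A and C12orf44 for NFIX.

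A list of 16 genes upstream or downstream of NFI factors was read in the same fit. SOX9 and POU3F2 act upstream of NFIA or NFIB in neural progenitors, EZH2 is repressed by NFI factors, and GFAP, FABP7, S100B, ALDH1L1, AQP4 and SLC1A3 are glial genes. The others are APCDD1, ZCCHC24, MMD2, GABRA6, CNTN2, CDH2 and EFNB1. Of their 369 tested sites 49 were closed and 11 opened after combined silencing, 26 and 4 after ARID1A silencing, and 13 called sites after ARID1B silencing were all closed. As shares these were 13.3% and 2.98%, 7.05% and 1.08%, and 3.52% closed, against 10.3% and 3.43%, 5.37% and 1.67%, and 3.53% over all tested sites. Their median log2 change after combined silencing was -0.03, against 0.03 over all tested sites. CDH2, which encodes N-cadherin, held the most closed sites, 18 of 45, followed by EFNB1, an ephrin ligand, with 8 of 21, POU3F2, a neural POU-domain factor, with 6 of 85, and ZCCHC24 with 4 of 14. Both tested sites of S100B, a glial calcium-binding protein, were closed, at a median log2 change of -1.41. SLC1A3 had 1 closed site of 69 and CNTN2 0 of 19. The pooled closed shares thus rest largely on CDH2 and EFNB1 and are not read as a trait of the list.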

How the data were processed

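ATAC-seq libraries of SK-N-BE(2) cells were aligned by the authors to GRCh38, per the labels, and raw read counts per library were deposited for each silenced group against Control, over 1 consensus set of sites. Which aligner and peak caller were used, and whether reads were shifted for Tn5, is not given in the sources used here, and DESeq2 is named in the submitters' processing notes. The deposited tables also hold 36 normalized columns of single libraries and 36 columns of the authors' own comparisons (fold changes, p-values and the like), which were not used. The HOMER annotation deposited with them gave gene names, positions and distances to the TSS, and its 1-based coordinates are used.

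Counts were fitted with edgeR 4.0.16 (R 4.3.3, limma 3.58.1): TMM scaling, filterByExpr with a minimum count of 10, glmQLFit and glmQLFTest on all 21 libraries, and Benjamini-Hochberg adjustment over 357029 tested sites, with a threshold of 0.01. The common biological coefficient of variation was 0.082. DESeq2 1.42.0 and other scalings, filters and sample sets were alternatives. The scripts were tested on simulated data. CPM uses TMM-scaled totals. Sequences were read from GRCh38 with pysam 0.24.0, and promoters from RefSeq.

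The members and lists were chosen with earlier results of these data known. Named sites were, per gene, the promoter-TSS sites, the site nearest to the TSS, the highest site in Control, the largest falls and rises after combined silencing among called sites of at least 1 CPM whose combination libraries all lay on 1 side of Control, and the site with the smallest p in each single-subunit contrast where called. The labels give no batch or date. Marker lists were read as promoter-TSS sites, which do not measure expression. No sample was left out.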

Additional observations from a re-analysis of the deposited data

Results flagged for a closer look

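Among the 17 named sites, 14 tests of a difference between silenced groups passed an FDR of 0.01 in edgeR. Over all 77 tested NFI sites, 16 sites were called between the combinations and 7 between the ARID1A shRNAs. Between the ARID1B shRNAs 8 sites were called, and between ARID1A and ARID1B silencing 4. The values below are log2 differences at the named sites only. Between the combinations, shARID1A/B.2.3 was lower than shARID1A/B.4.2 at NFIA +602 (-0.53), NFIB +114812 (-0.80), NFIB +125540 (-0.70), NFIB -59057 (-0.69), NFIC +34 (-0.47) and NFIX +227 (-0.73), which include both sites that closed and sites that opened against Control.

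Between the shRNAs against ARID1A, shARID1A.2 was lower than shARID1A.4 at NFIB +104515 (-1.22), NFIB +114812 (-0.52) and NFIB +125540 (-0.66). Between those against ARID1B, shARID1B.3 was lower than shARID1B.2 at NFIB +43104 (-0.54) and NFIB -59057 (-0.78).

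ARID1A silencing differed from ARID1B silencing at NFIX +12261 (-1.39), NFIB +114812 (-0.36) and NFIC -15492 (0.39). At NFIX +12261 the ARID1A and ARID1B values against Control had opposite signs. Whether depletion of the subunits differed between the shRNAs was not measured in these libraries.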

How the results depend on the processing

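Of 34 calls at the 17 named sites, over the 5 contrasts, 16 held in all 9 settings other than leaving out a library, and no called value changed sign in any setting. Counts below are closed (or lower) and opened (or higher) NFI sites. Shares over all tested sites are given for the main setting alone. The counts below therefore show only how the NFI calls move, and nothing is read from them about the NFI sites against other sites.

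At an FDR under 0.05 combined silencing closed 14, the counts were 7 and 10 for ARID1A silencing and 4 and 7 for ARID1B silencing, ARID1A against ARID1B gave 5 lower and 3 higher, and combined against single silencing 18 lower and 2 higher. Requiring a log2 change of at least 1 left 1 closed and 1 opened site after combined silencing, 0 and 0 after ARID1A and after ARID1B silencing, 1 lower and 0 higher between ARID1A and ARID1B, and 0 lower in combined against single silencing. With factors from promoter-TSS sites the counts were 18 and 1 for combined silencing, 8 and 0 for ARID1A silencing and 5 and 0 for ARID1B silencing, since every change moved down. DESeq2 gave 1 closed site for ARID1A silencing, 1 closed and 1 opened for ARID1B silencing, 0 higher between ARID1A and ARID1B (10 at an unadjusted p under 0.05) and 6 lower in combined against single silencing, for which the cause was not tested. Without the filter on low counts ARID1A silencing closed 1 site, and sites within 100000 bases of the TSS gave 1 closed site for ARID1A silencing and 1 lower between ARID1A and ARID1B, since fewer sites enter. ARID1A against ARID1B gave 2 higher sites with abundance-following offsets, no filter, only the compared groups and total counts, and combined against single silencing gave 1 higher with abundance-following offsets, only the compared groups and total counts.

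Leaving out 1 of the 21 libraries at a time, those outside a contrast included (an addition made after seeing the data), gave 6 to 11 closed and 4 to 14 opened sites after combined silencing, 1 to 3 and 0 to 8 after ARID1A silencing, 1 to 2 and 0 to 5 after ARID1B silencing, 1 to 4 lower and 0 to 2 higher between ARID1A and ARID1B, and 5 to 10 lower and 0 to 1 higher in combined against single silencing. ARID1A against ARID1B had 0 higher sites in edgeR (7 to 13 at an unadjusted p under 0.05) without shARID1A.2 replicate 1 or 3, shARID1A.4 replicate 1, shARID1B.2 replicate 1 or 3 or shARID1B.3 replicate 3, and 2 without shARID1A.2 or shARID1B.2 replicate 2, Control replicate 2 or any 1 shARID1A/B.2.3 library.

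The replicate numbers did not pair the libraries in general: 4 of 63 same-numbered pairs had a correlation of deviations over 0.1 (range -0.16 to 0.305). The highest, at 0.305, 0.173 and 0.156, joined replicate 2 of Control, shARID1A.2 and shARID1A/B.2.3. Whether these libraries were handled together is not given in the labels. With the replicate block ARID1A against ARID1B had 2 higher sites and combined against single silencing 1, and the other counts stayed within 1.5 times, at 11 closed and 10 opened for combined silencing.

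The summed log2 ratios of combined silencing to Control were -0.11 for NFIA and -0.33 for NFIB with promoter-based factors, and moved by less than the spread between replicates for NFIC and NFIX and with the other scalings. The shares of closed distal sites with the full palindrome, the shorter palindrome and the single-arm site were 0.194%, 2.25% and 15.6% in the middle 200 bases and 0.363%, 4.79% and 33.4% in the middle 500, since longer windows hold more letters. Weak sites limit precision: the median NFI site held 50 reads per library and the lowest 2.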

Other observations

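Of the 369 tested sites of the 16 genes upstream or downstream of NFI factors, 18 were called between ARID1A and ARID1B silencing, in 7 genes, and all were lower with ARID1A silenced (4.88%, against 3.69% of all tested sites). In combined against single silencing 34 were lower, in 12 genes (9.21% against 6.85%), and 3 were higher, in 2 genes. CDH2 and EFNB1 held 6 and 4 of those 18 lower sites, and 12 and 5 of the 34. These shares too rest largely on the same genes and are not read as a trait of the list. Of the sites inside an NFI gene that carry another gene's name, 0 of 25 in NFIA, 1 of 21 in NFIB, 2 of 9 in NFIC and 1 of 9 in NFIX were lower after ARID1A than after ARID1B silencing, against 4.411% of all tested intronic sites, and 1 in NFIA was higher.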
